A study of Mus musculus with 16 samples.

Results

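The comparison described here is that of fasting for 24 h in muscle without the FoxO transcription factors. It rests on 8 of the 16 arrays of the study. Of these, 4 held quadriceps RNA of mFoxO-TKO mice fasted for 24 h and 4 held quadriceps RNA of fed mFoxO-TKO mice. The labels number the samples of a group 1 to 4 and do not say whether an RNA came from 1 mouse or from several. In these mice a Cre recombinase driven by HSA, the human skeletal actin promoter, deletes Foxo1, Foxo3 and Foxo4 in skeletal muscle fibres, and both groups carry the deletion. The promoter acts in muscle fibres, so other cells of the muscle keep their FoxO genes. The fasted mice were caged singly without food and the fed mice ate freely. All were males aged 8 weeks. The remaining 8 arrays held quadriceps RNA of fasted (4 arrays) and fed (4 arrays) wild-type (WT) mice of the same age and sex, whose Cre and allele status the labels do not give. They are used below to show where the response of the knockout muscle differed.

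Fasting lowers insulin and raises glucocorticoids. Muscle then burns fatty acids and ketone bodies in place of glucose, stops making fat, and breaks down protein by the ubiquitin-proteasome system and by autophagy to release amino acids. Insulin signalling keeps FoxO proteins out of the nucleus. In fasting they return to it, and in normal muscle they are known to turn on ubiquitin ligases such as Trim63 (MuRF1) and Fbxo32 (atrogin-1), autophagy genes and brakes on growth. The mFoxO-TKO groups show which genes still respond to fasting when these 3 factors are deleted in the fibres.

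Signals are given as log2 values relative to the 75th percentile of the array, so a level of 0 is the 75th percentile and 1 unit is a factor of 2. A change is the mean of the fasted mFoxO-TKO arrays minus the mean of the fed ones, with the standard error of the limma model fitted across all 16 arrays. A gene passed at a Benjamini-Hochberg adjusted p under 0.05 over 21275 genes, and "rose" and "fell" are used only of genes that passed. Array values are listed in the order of replicates 1 to 4. The p-values describe the spread between these samples. Levels of different genes are not compared, since each comes from its own probe. In whole muscle, fewer cells of a type and less RNA per cell cannot be told apart.

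Slide 1 carried the arrays of replicates 1 and 2 in each of the 4 groups, and slide 2 those of replicates 3 and 4. Each group lay in 1 array column of a slide, so position and group cannot be told apart. Fasted mFoxO-TKO replicate 1 stood apart from the other 15 arrays. Its share of spots well above background was the smallest, 45.0%, but WT fasted replicate 3 was close to it at 45.1%. On fasted mFoxO-TKO replicate 1, 5.85% of the spots lay in patches of lost signal, against at most 0.766% on any other array. In a patch the bright spots nearby read a median of more than 1 log2 unit below the other arrays of the group. On that replicate 36 genes read more than 8 log2 units below each of the other fasted mFoxO-TKO arrays, and on each of the other 15 arrays 0 genes read that far below the rest of their group. Cox5a, Rpl11, Ctsd, Bnip3 and Nr4a1 were among the 36, and these 5 were picked out after their values were seen. Bnip3, a mitophagy receptor, read -5.07 on fasted replicate 1 and 7.38, 7.55 and 7.22 on the other fasted arrays, against 6.72, 6.71 and 6.55 on the 3 fed arrays with a value. It passed without fasted replicate 1, at 0.72 (adjusted p = 0.020), and did not pass with it. The number of passing genes of a list is also given without an array where that moves it by more than 1.5 times, and so is its split into rises and falls where either moves by more than 1.5 times and by 2 genes or more.

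The knocked-out genes were read first. Foxo1 had 1.91, 1.54, 1.58 and 1.67 on the fasted arrays, against 1.13, 0.85, 1.40 and 0.42 on the fed arrays, and the fasted minus fed value was 0.72 ± 0.23 (SE, adjusted p = 0.068), which passed with replicate number as a block (adjusted p = 0.040). A second Foxo1 probe gave 1.11 (adjusted p = 0.020). The value for Foxo3 was 0.61 ± 0.26 (SE, adjusted p = 0.18). None of the 8 mFoxO-TKO arrays read Foxo4 well above background. In WT muscle Foxo1 had 5.78, 4.99, 4.80 and 4.70 on the fasted arrays and 2.73, 2.86, 2.45 and 2.80 on the fed arrays. The Foxo1 change in mFoxO-TKO minus that in WT was -1.63 ± 0.33 (SE, adjusted p = 0.025). That call was lost without fasted replicate 2 or 4 or fed replicate 1, 2 or 3 (adjusted p = 0.050 to 0.057). Whether the probes lie inside the deleted exons is not given in the sources used here.

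Fasting changed 1857 of the 21275 genes in mFoxO-TKO muscle (8.73%). Of these 1000 rose (4.70% of the genes tested) and 857 fell (4.03%). At least 2-fold changes were seen for 408 genes that rose and 474 that fell, and at least 4-fold changes for 69 and 84. The median change over all genes was 0.07. The fasted and fed arrays did not overlap for 1625 of the 1857 genes, and over all genes tested 14.3% showed no overlap, 8.71% with the fasted arrays higher and 5.61% with them lower. With replicate number as a block, 3359 genes passed. Without fasted replicate 1, 836 genes rose and 1303 fell. Without fed replicate 2 the counts were 606 and 526, without fasted replicate 3 they were 688 and 455, and without fed replicate 3 they were 678 and 570. When the 75th percentile was taken over probes above background on all arrays, 1247 genes rose and 1704 fell, so that 42.3% of the calls were rises, against 53.9% with the percentile over all probes. On slide 1 alone 43 genes rose and 73 fell, and on slide 2 alone 900 rose and 898 fell. Of 164 named genes that passed, 108 passed without each of the 8 mFoxO-TKO arrays in turn. Genes described below as rising or falling are among these unless the arrays whose absence ended the call are given.

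With all arrays in the fit, the largest rise among genes with an ordinary symbol whose groups did not overlap was that of Lcn2, which encodes lipocalin 2, a secreted iron-carrier binder of the acute-phase response. Lcn2 had 4.83, 3.80, 5.48 and 4.46 on the fasted arrays, against 1.23, 0.24, -0.97 and -0.61 on the fed arrays. It rose by 4.67 ± 0.44 (SE, adjusted p = 4.2e-05), a 25.5-fold difference, and all 4 fasted arrays lay above all fed ones. Acot2, a mitochondrial acyl-CoA thioesterase, had 2.12, 2.10, 2.58 and 2.52 on the fasted arrays, against -1.67, -1.22, -1.36 and -1.63 on the fed arrays, and rose by 3.80 ± 0.23 (SE, adjusted p = 1.0e-06). Its cytosolic near-copy Acot1 rose by 4.19 ± 0.76 (SE, adjusted p = 0.0032), with 0.02 on fasted replicate 1 and 2.84 to 4.73 on the other fasted arrays. Without fasted replicate 1 Acot1 rose by 5.20 (adjusted p = 4.2e-05), more than Lcn2 at 4.61 (adjusted p = 0.00011). Cross-hybridisation between these near-identical genes was not tested. Odf3l2, a relative of a sperm tail protein, rose by 3.30 ± 0.50 (SE, adjusted p = 0.0011). Galnt15, a glycosyltransferase, rose by 3.17 ± 0.32 (SE, adjusted p = 5.5e-05). Il6ra, the interleukin-6 receptor, had 3.89, 4.23 and 3.88 on 3 fasted arrays, against 1.46, 0.30 and 0.87 on 3 fed arrays, and rose by 3.12 ± 0.27 (SE, adjusted p = 5.5e-05). Ddit4 (REDD1), an inhibitor of mTORC1 induced by glucocorticoids, had 7.41, 6.69, 6.32 and 6.17 on the fasted arrays, against 3.68, 2.46, 4.55 and 3.45 on the fed arrays, and rose by 3.11 ± 0.44 (SE, adjusted p = 0.00065). Further large rises, those of Gpr179, Mlph, Doc2b, Plekhd1, Mrgprg and Kiss1, were of 2.94 to 3.92, and each of these genes was not well above background on 1 or more fed arrays. Kiss1, which encodes kisspeptin, had -2.90, -3.52, 0.56 and 0.53 on the fasted arrays, against -4.55, -6.14, -4.87 and -5.45 on the fed arrays. Its call was lost without fasted replicate 3 or 4 or fed replicate 2 (adjusted p = 0.070 to 0.078).

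Among the genes that fell furthest by the same rule, Adamts17, a secreted metalloprotease, was not well above background on any fasted array. It was at least 5.18-fold lower in fasted than in fed mFoxO-TKO muscle (adjusted p = 0.00061). Syt13, a synaptotagmin, was in the same position and was at least 3.04-fold lower (adjusted p = 5.6e-05). Such a bound sets the mean of the brighter group against the faintest signal still well above background on the arrays of the other. Mest, an imprinted gene of growth, had -1.16, -0.46, -2.63 and -1.70 on the fasted arrays, against 2.33, 2.17, 1.75 and 0.87 on the fed arrays, and changed by -3.27 ± 0.41 (SE, adjusted p = 0.00031). Dclk1, a microtubule-binding kinase, had -1.62, -0.93, -3.35 and -2.21 on the fasted arrays, against 2.73, 2.07, 1.30 and -0.68 on the fed arrays, and changed by -3.39 ± 0.58 (SE, adjusted p = 0.0022). For both genes all fasted arrays lay below all fed ones. Lrrc17, a secreted leucine-rich repeat protein, changed by -3.25 ± 0.47 (SE, adjusted p = 0.00076). Ppm1n, a phosphatase, changed by -2.74 ± 0.35 (SE, adjusted p = 0.00033), and Ttbk1, a tubulin kinase, by -2.69 ± 0.26 (SE, adjusted p = 4.2e-05). Mup2, a major urinary protein with near-identical relatives, changed by -3.09 ± 0.59 (SE, adjusted p = 0.0045), and its probe may read those relatives too. C1qtnf3, a secreted adipokine, Cd209f, a lectin of macrophages, Tubb2b, a tubulin of developing cells, and Pnmal2 fell by 2.55 to 2.64. Apln, which encodes the peptide apelin, and Mymk, which encodes the fusion protein myomaker, also belong here and are described below with their groups.

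**Figure D1:**
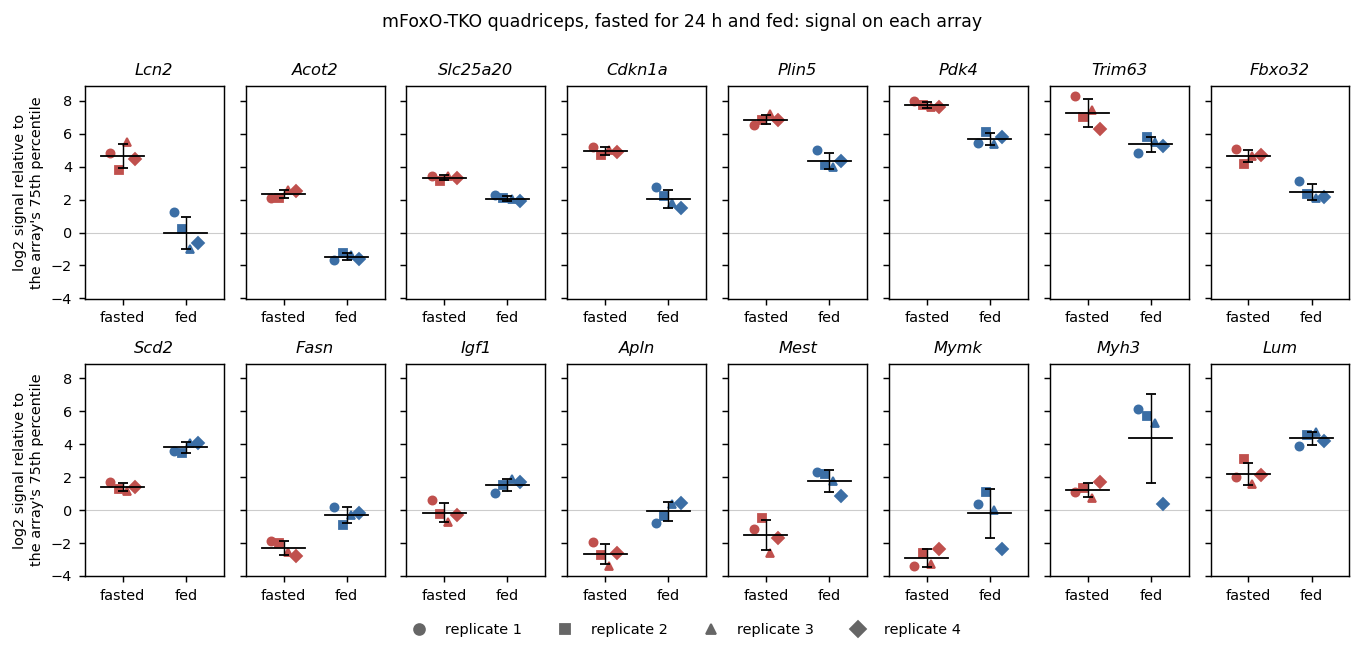
Log2 signal relative to the 75th percentile of the array for 16 named genes in mFoxO-TKO quadriceps, fasted arrays (red) left of fed arrays (blue); each symbol is 1 array, symbols mark the replicate, bars are group means and whiskers ± 1 SD (n = 4 per group). For Lcn2, Acot2, Plin5 and Scd2 the groups are far apart, while for Myh3 the fed arrays lie at 5.27 to 6.11 except fed replicate 4 at 0.36.

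Many genes of fat storage rose. Of 18 genes of lipid droplets and triglyceride turnover, 11 rose (8 to 12 without each array in turn), 0 fell and 7 did not pass, with a median change of 0.95 against 0.07 over all genes and 4.70% of all genes rising. Plin5, a droplet coat protein that ties droplets to mitochondria, had 6.50, 6.84, 7.17 and 6.82 on the fasted arrays, against 5.04, 4.07, 3.99 and 4.32 on the fed arrays. It rose by 2.48 ± 0.22 (SE, adjusted p = 2.1e-05), with no overlap between the groups. Plin4, another coat protein, rose by 1.70 ± 0.22 (SE, adjusted p = 0.00041). Dgat2, which makes triglyceride, had 6.80, 6.34, 6.53 and 6.26 on the fasted arrays, against 5.50, 4.53, 4.57 and 4.72 on the fed arrays, and rose by 1.66 ± 0.27 (SE, adjusted p = 0.0016). The hormone-sensitive lipase Lipe, which breaks triglyceride down, had 1.12, -0.95, -0.83 and -0.57 on the fasted arrays, against -1.98, -2.13, -1.97 and -1.71 on the fed arrays, and rose by 1.64 ± 0.36 (SE, adjusted p = 0.011). Pnpla2 (ATGL), the lipase that starts this breakdown, rose by 1.06 ± 0.16 (SE, adjusted p = 0.00090), the coat protein Plin2 by 1.16 and Lpin1, of triglyceride synthesis, by 1.14; these 3 were picked out after their values were seen. Cidea, which fuses droplets as Cidec does, rose by 1.51 ± 0.40 (SE, adjusted p = 0.026), a call lost without fasted replicate 3 or 4 or fed replicate 2 or 3 (adjusted p = 0.052 to 0.091). Cidec, which enlarges droplets by fusion, had 3.32, 4.08, 4.67 and 4.17 on the fasted arrays, against 3.28, 2.41, 2.50 and 2.32 on the fed arrays, and rose by 1.43 ± 0.33 (SE, adjusted p = 0.013). Cidec is also an adipocyte marker. Of 8 adipocyte markers Lep was not above background and 7 were tested. Cidec rose, Retn (resistin) changed by -1.11 ± 0.33 (SE, adjusted p = 0.046) and the other 5 did not pass. The count passing was 1 without fasted replicate 3 or 4 or fed replicate 3 or 4. Without fasted replicate 1, and likewise without fed replicate 1, it was 2 higher and 0 lower. The summed signal of 6 of the 7 adipocyte markers tested ran from 7611 to 8425 on the fasted arrays. On the fed arrays it ran from 6281 to 10700, with the 75th percentile of an array set to 100. Fabp4, 1 of the 7 markers tested, had 7.05, 7.05, 6.63 and 7.01 on the fasted arrays, against 6.83, 6.58, 6.71 and 6.68 on the fed arrays, and did not pass. The call of Retn was lost without fasted replicate 1, 3 or 4 or fed replicate 1, 3 or 4 (adjusted p = 0.069 to 0.12), and its second probe gave -1.0 (adjusted p = 0.084). The part of fat cells in these results was not tested.

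Of 26 genes of mitochondrial and peroxisomal fatty acid oxidation, 8 rose, 0 fell and 18 did not pass, with a median of 0.50. Over all genes tested 4.70% rose. The count was 13 without fed replicate 1 and 5 without fasted replicate 3 or fed replicate 2, 3 or 4, and with replicate number as a block it was 17 higher and 0 lower. Slc25a20, the carnitine-acylcarnitine carrier that brings acyl groups into mitochondria, had 3.45, 3.13, 3.42 and 3.30 on the fasted arrays, against 2.28, 2.07, 2.0 and 1.90 on the fed arrays. It rose by 1.26 ± 0.12 (SE, adjusted p = 4.2e-05), and every fasted array lay well above every fed array. Etfdh, which passes electrons of fat oxidation to ubiquinone, rose by 1.1 ± 0.19 (SE, adjusted p = 0.0024). Acadl, a dehydrogenase of long acyl chains, had 5.47, 5.13, 5.25 and 5.11 on the fasted arrays, against 4.70, 4.23, 4.10 and 3.88 on the fed arrays, and rose by 1.01 ± 0.23 (SE, adjusted p = 0.011). Eci2, an isomerase for unsaturated fatty acids, rose by 0.99 ± 0.15 (SE, adjusted p = 0.0011) with 3 fasted arrays, and the peroxisomal Hsd17b4 by 0.91 ± 0.15 (SE, adjusted p = 0.0022) with 3 arrays in each group.

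Among 16 genes of lipoprotein lipase control and fatty acid uptake 5 rose and 0 fell, against 4.70% of all genes rising. The count was 3 without fed replicate 3 or 4, and with replicate number as a block it was 6 higher and 2 lower. Angptl4, an inhibitor of lipoprotein lipase induced by fatty acids, had 5.09, 4.70 and 5.02 on 3 fasted arrays, against 2.84, 3.09, 2.90 and 2.46 on the 4 fed arrays, and rose by 2.11 ± 0.38 (SE, adjusted p = 0.0035). Slc27a1, a fatty acid transporter, had 2.86, 2.88, 2.82 and 2.85 on the fasted arrays, against 2.32, 1.89, 1.30 and 1.46 on the fed arrays, and rose by 1.11 ± 0.21 (SE, adjusted p = 0.0048). Gpihbp1, which anchors the lipase to capillary walls and is made by endothelial cells, rose by 1.0 ± 0.21 (SE, adjusted p = 0.0083). Cd36, the fatty acid translocase, had 4.93, 4.93 and 5.02 on 3 fasted arrays, against 3.50 and 3.69 on 2 fed arrays, and rose by 1.36 ± 0.18 (SE, adjusted p = 0.00088).

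The acyl-CoA thioesterases gave 2 rises among 12 tested, those of Acot1 and Acot2, and the count passing was 4 without fasted replicate 1 or with replicate number as a block. Among 16 genes of pyruvate dehydrogenase control and the uncoupling proteins 3 rose and 1 fell, against 8.73% of all genes passing. Pdk4, the kinase that shuts pyruvate dehydrogenase off, had 7.99, 7.75, 7.65 and 7.61 on the fasted arrays, against 5.46, 6.12, 5.36 and 5.79 on the fed arrays. It rose by 2.06 ± 0.31 (SE, adjusted p = 0.0011), with no overlap. Ucp3, the uncoupling protein of muscle mitochondria, had 4.17, 4.01, 3.85 and 3.62 on the fasted arrays, against 1.39, 1.80, 1.77 and 1.74 on the fed arrays, and rose by 2.23 ± 0.23 (SE, adjusted p = 5.5e-05). The 2 phosphatases that turn pyruvate dehydrogenase on moved in opposite directions. Pdp2 had 0.62, 0.32, 1.90 and 0.80 on the fasted arrays, against -0.09, -0.77, -0.80 and -0.63 on the fed arrays, and rose by 1.48 ± 0.29 (SE, adjusted p = 0.0056), while Pdp1 had 2.76, 2.75, 2.70 and 2.50 on the fasted arrays, against 4.13, 3.65, 3.41 and 3.44 on the fed arrays, and changed by -0.98 ± 0.23 (SE, adjusted p = 0.016).

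Of 10 genes of ketone body use and monocarboxylate transport 3 rose and 0 fell, against 4.70% of all genes rising. The count was 1 without fasted replicate 1 or 3 or fed replicate 2, 3 or 4 and 5 with replicate number as a block. Bdh1, which interconverts the ketone bodies, rose by 0.81, a call lost without fasted replicate 1, 3 or 4 or fed replicate 2, 3 or 4 (adjusted p = 0.090 to 0.13). Slc16a3, a lactate exporter, rose by 0.92, a call lost without fasted replicate 1, 2 or 3 or fed replicate 2, 3 or 4 (adjusted p = 0.078 to 0.12). Among 27 genes of glycolysis, glycogen and glucose transport 3 rose, 1 fell and 23 did not pass, against 8.73% of all genes passing. The count was 2 without fasted replicate 3. Fbp2, the muscle fructose bisphosphatase of glycogen synthesis from lactate, had 3.48, 3.72, 4.22 and 4.24 on the fasted arrays, against 1.94, 1.40, 1.71 and 1.63 on the fed arrays. It rose by 2.25 ± 0.18 (SE, adjusted p = 1.1e-05), with no overlap. Slc2a3, a glucose transporter, had 1.1, 1.31, 1.36 and 1.37 on the fasted arrays, against 0.91, -0.25, -1.11 and -0.41 on the fed arrays, and rose by 1.50 ± 0.34 (SE, adjusted p = 0.012). The gene that fell, Pfkfb3, is described with the WT comparison. Of 16 PPAR, ERR and PGC-1 regulators only Nrip1, a corepressor, rose (0.71), which is 6.25% of the list against 4.70% of all genes. The Nrip1 call was lost without fasted replicate 2 or fed replicate 3 or 4 (adjusted p = 0.053 to 0.061). The count of this list was 3 without fed replicate 1, 2 without fasted replicate 3 and 0 without fed replicate 3 or 4, and 3 with replicate number as a block. Of 35 nuclear-encoded respiratory chain subunits 0 passed in the limma fit, 1 did at an unadjusted p under 0.05, and 1 did with replicate number as a block.

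Many genes of fatty acid synthesis fell. Of 17 tested 8 fell, 1 rose and 8 did not pass, with a median of -0.95 against 0.07 over all genes and 4.03% of all genes falling. Scd2, a desaturase, had 1.72, 1.26, 1.16 and 1.42 on the fasted arrays, against 3.57, 3.47, 4.08 and 4.09 on the fed arrays. It changed by -2.41 ± 0.24 (SE, adjusted p = 4.8e-05), a 5.32-fold difference, and all fasted arrays lay far below all fed ones. Fasn, the fatty acid synthase, had -1.89, -1.99, -2.51 and -2.79 on the fasted arrays, against 0.20, -0.91, -0.33 and -0.16 on the fed arrays, and changed by -2.0 ± 0.35 (SE, adjusted p = 0.0026). Elovl6, which lengthens its product, had -2.44, -2.22, -2.61 and -2.48 on the fasted arrays, against -0.37, -1.05, -0.17 and -0.15 on the fed arrays, and changed by -2.0 ± 0.24 (SE, adjusted p = 0.00022). Slc25a1, which exports citrate for fat synthesis, changed by -1.37 ± 0.23 (SE, adjusted p = 0.0017), Acly, which splits that citrate, by -1.06 ± 0.22 (SE, adjusted p = 0.0085), and Srebf1, the transcription factor of the pathway, by -1.19 ± 0.24 (SE, adjusted p = 0.0067). The 1 member that rose was Acacb, at 0.81 ± 0.12 (SE, adjusted p = 0.0011), the acetyl-CoA carboxylase whose product blocks fatty acid entry into mitochondria. Its counterpart in fat synthesis, Acaca, changed by -1.06 ± 0.28 (SE, adjusted p = 0.028), a call lost without fed replicate 1, 3 or 4 (adjusted p up to 0.072). Acaca and Acacb were picked out after their values were seen. Among 23 genes of cholesterol synthesis and uptake 5 fell, 0 rose and 18 did not pass, with a median of -0.26. With replicate number as a block 7 fell and 1 rose, and without fed replicate 1 the counts were 4 and 2. Sqle, which makes squalene epoxide, had -2.14, -1.93, -2.76 and -1.70 on the fasted arrays, against -0.42, -0.72, -0.31 and -0.83 on the fed arrays, and changed by -1.56 ± 0.25 (SE, adjusted p = 0.0014). Msmo1, of the later steps of the pathway, changed by -0.99 ± 0.22 (SE, adjusted p = 0.013) with 3 fasted arrays. Srebf2, the transcription factor of cholesterol synthesis, changed by -0.68 ± 0.13 (SE, adjusted p = 0.0056), and its second probe gave -0.61 (adjusted p = 0.28).

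**Figure D2:**
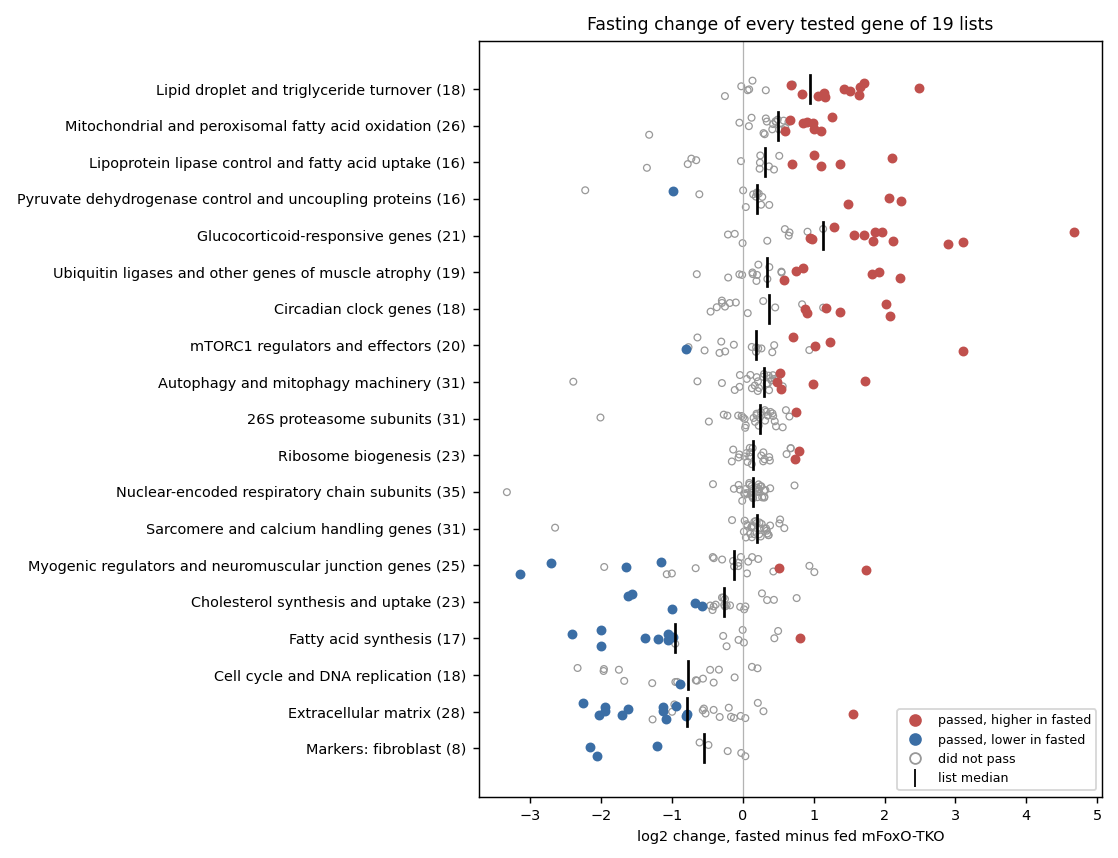
Log2 change (fasted minus fed mFoxO-TKO) of every tested gene of 19 lists, 1 point per gene; filled red points rose, filled blue points fell, open points did not pass, and the vertical bar is the median of the list, with the number of genes tested in brackets. Lipid droplet and glucocorticoid-responsive genes lie mostly right of 0 with medians of 0.95 and 1.13, and fatty acid synthesis and matrix genes lie mostly left of it with medians of -0.95 and -0.79.

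Many glucocorticoid-responsive genes rose. Of 21 tested 12 rose, 0 fell and 9 did not pass, with a median of 1.13, against 4.70% of all genes rising. The count was 10 to 14 without each array in turn. The list includes Lcn2 and Ddit4, described above. Cdkn1a (p21), an inhibitor of the cell cycle, had 5.19, 4.68, 5.03 and 4.89 on the fasted arrays, against 2.73, 2.21, 1.78 and 1.46 on the fed arrays, and rose by 2.90 ± 0.26 (SE, adjusted p = 2.1e-05). Fkbp5, a chaperone of the glucocorticoid receptor that the receptor itself turns on, had 5.29, 5.53, 5.71 and 5.37 on the fasted arrays, against 4.47, 3.11, 2.63 and 3.22 on the fed arrays, and rose by 2.12 ± 0.36 (SE, adjusted p = 0.0022). Pik3r1, a regulatory subunit of the insulin-signalling kinase, had 1.58, 2.34 and 1.86 on 3 fasted arrays, against 0.79, -0.06, -0.17 and -0.32 on the 4 fed arrays, and rose by 1.87 ± 0.27 (SE, adjusted p = 0.00097). Cebpd, a transcription factor of wasting muscle, rose by 1.84 ± 0.38 (SE, adjusted p = 0.0071), Arrdc2 by 1.71 and Nfkbia, the inhibitor of NF-kappaB, by 0.94. Zbtb16 rose by 1.28, a call lost without fasted replicate 2 or 3 or fed replicate 2, 3 or 4 (adjusted p up to 0.10). Klf15, a glucocorticoid-induced regulator of amino acid breakdown, rose by 0.98, a call lost without any 1 array other than fed replicate 1 (adjusted p up to 0.14). These 5 were picked out after their values were seen. Of 12 metallothionein and zinc transport genes 4 rose and 1 fell, and the count was 3 without fasted replicate 2, 3 or 4 or fed replicate 4 and 2 without fed replicate 3. The metal-binding Mt2 had 8.91, 8.32, 8.12 and 7.88 on the fasted arrays, against 7.17, 7.64, 5.94 and 4.64 on the fed arrays, and rose by 1.96 ± 0.47 (SE, adjusted p = 0.017), a call lost without fed replicate 3 (adjusted p = 0.055). Mt1 had 7.60, 8.05, 8.11 and 7.62 on the fasted arrays, against 6.93, 7.03, 5.98 and 5.18 on the fed arrays, and rose by 1.56 ± 0.32 (SE, adjusted p = 0.0064), and a second Mt1 probe gave 2.25 (adjusted p = 0.087). Mt1 and Mt2 are close copies. Slc39a14, a zinc importer, had 2.62, 1.44, 2.59 and 1.78 on the fasted arrays, against -0.04, 0.41, 0.12 and -0.01 on the fed arrays, and rose by 1.99 ± 0.38 (SE, adjusted p = 0.0046). Of 19 acute-phase and cytokine response genes 4 rose and 0 fell. Beside Lcn2 and Il6ra these were Osmr, the oncostatin M receptor, at 1.02 ± 0.19 (SE, adjusted p = 0.0037), and Serpina3n, a protease inhibitor. Serpina3n had 1.64, -0.70, -0.62 and -1.02 on the fasted arrays, against -1.94, -1.13, -2.84 and -2.87 on the fed arrays, with fasted replicate 1 far above the other fasted arrays. It rose by 2.02 ± 0.54 (SE, adjusted p = 0.029), a call lost without fed replicate 3 (adjusted p = 0.088) or fed replicate 4 (0.079).

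Promoter sequences were searched for the binding motifs of FoxO, the glucocorticoid receptor, SREBP and PPAR. RefSeq promoters of 300 bases (250 before and 50 after a start, build GRCm38.p6) were at hand for 11236 of the genes tested. The FoxO core TGTTTAC was searched on both strands and was present for 3.18% of them. It was present for 3.65% of the 603 genes that rose and 3.68% of the 543 that fell. The palindrome of the glucocorticoid receptor, GNACANNNTGTNC, which reads the same on both strands, was present for 0.454% of all genes, for 2.16% of those that rose (13 genes) and for 0.552% of those that fell (3 genes). The sterol element TCACNCCAC was present for 1.40% of all genes, 2.49% of those that rose and 1.29% of those that fell. The repeat bound by PPAR, AGGNCA followed by any 1 base and AGGNCA again, was present for 0.356%, 0.332% and 0.737%. Of the 1558 genes with a promoter that rose in WT, 0.834% (13 genes) held the glucocorticoid receptor palindrome. These shares are descriptions and were not tested, and a match is not a bound site. The promoters of Trim63 and Mt1, which rose in the knockout, and of Rnf39, described below, were chosen after the matches were seen. They are given 5′ to 3′ on the strand of the gene, with matches to the FoxO core and the glucocorticoid receptor palindrome in capitals.
Trim63 (chr4:134314870-134315169, plus strand, both motifs): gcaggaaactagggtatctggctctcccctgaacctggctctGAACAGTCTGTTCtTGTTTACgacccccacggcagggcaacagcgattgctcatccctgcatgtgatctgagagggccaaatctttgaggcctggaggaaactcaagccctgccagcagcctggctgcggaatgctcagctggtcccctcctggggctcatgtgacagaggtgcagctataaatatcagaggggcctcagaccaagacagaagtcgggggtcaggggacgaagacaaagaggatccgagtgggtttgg
Mt1 (chr8:94178839-94179138, plus strand, the palindrome): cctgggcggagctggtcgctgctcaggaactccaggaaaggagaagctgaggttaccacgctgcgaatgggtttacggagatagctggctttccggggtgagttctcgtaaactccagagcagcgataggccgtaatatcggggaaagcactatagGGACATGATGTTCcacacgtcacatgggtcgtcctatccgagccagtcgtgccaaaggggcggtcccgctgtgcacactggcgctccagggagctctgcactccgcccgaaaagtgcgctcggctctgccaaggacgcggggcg
Rnf39 (chr17:36942801-36943100, plus strand, the FoxO core): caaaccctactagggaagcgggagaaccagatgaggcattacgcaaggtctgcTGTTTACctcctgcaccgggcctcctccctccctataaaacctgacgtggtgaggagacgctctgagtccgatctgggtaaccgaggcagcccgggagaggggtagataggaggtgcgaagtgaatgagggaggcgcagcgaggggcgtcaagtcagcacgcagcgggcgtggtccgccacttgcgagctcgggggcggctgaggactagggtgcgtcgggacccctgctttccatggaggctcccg
In the Trim63 promoter the palindrome and the FoxO core lie next to each other, with a single base between them.

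Both classical ubiquitin ligases of muscle wasting rose in fasted mFoxO-TKO muscle. Of 19 ubiquitin ligases and other atrophy genes 6 rose and 0 fell, with a median of 0.35, against 4.70% of all genes rising. The count was 3 without fed replicate 3. Trim63, the ligase of myosin and other thick filament proteins, had 8.29, 6.98, 7.46 and 6.31 on the fasted arrays, against 4.81, 5.82, 5.51 and 5.23 on the fed arrays. It rose by 1.92 ± 0.33 (SE, adjusted p = 0.0026), and its groups did not overlap. Fbxo32, the other classical atrophy ligase, had 5.08, 4.17, 4.65 and 4.72 on the fasted arrays, against 3.14, 2.35, 2.09 and 2.15 on the fed arrays, and rose by 2.22 ± 0.32 (SE, adjusted p = 0.00083). Cblb, a ligase that targets insulin receptor substrate, had 2.17, 2.0, 2.11 and 1.74 on the fasted arrays, against 0.46, 0.28, -0.13 and 0.14 on the fed arrays, and rose by 1.82 ± 0.22 (SE, adjusted p = 0.00023), while its second probe gave 1.61 (adjusted p = 0.064). Fbxo21, Trim54 and Asb2, 3 other ligase genes of muscle, rose by 0.58 to 0.85. The Fbxo21 call was lost without fed replicate 3 (adjusted p = 0.052) or fed replicate 4 (0.050). The Trim54 call was lost without fasted replicate 1 or 3 or fed replicate 2, 3 or 4 (adjusted p = 0.061 to 0.10), and the Asb2 call was lost without fasted replicate 1, 3 or 4 or fed replicate 2 or 3 (adjusted p = 0.055 to 0.11).

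The proteasome itself was read as 31 subunits. Of these 1 rose and 0 fell, against 4.70% of all genes rising, with 3 rises without fasted replicate 4, and 9 rises with replicate number as a block. The gene that rose was Psmd11, a lid subunit, which had 4.43, 3.80, 3.77 and 3.72 on the fasted arrays, against 3.23, 3.19, 3.08 and 3.22 on the fed arrays, and rose by 0.75 ± 0.16 (SE, adjusted p = 0.0082). Of 17 genes of ubiquitin supply and conjugation 2 rose, and 6 did with replicate number as a block, while 1 did without fasted replicate 2 or fed replicate 2, 3 or 4. Ube2g2, a conjugating enzyme, rose by 0.71 ± 0.14 (SE, adjusted p = 0.0076) with 3 fasted arrays.

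Of 31 autophagy genes 5 rose and 0 fell, with a median of 0.30, against 4.70% of all genes rising and a median of 0.07. The count was 3 without fasted replicate 3 or fed replicate 3 and 2 without fed replicate 2, and with replicate number as a block it was 11 higher and 1 lower. Depp1, a regulator of autophagy known as a FoxO target, had 3.27, 2.55, 3.03 and 3.08 on the fasted arrays, against 0.95, 0.03, 2.35 and 1.68 on the fed arrays, and rose by 1.73 ± 0.39 (SE, adjusted p = 0.012). Gabarapl1, which coats autophagosomes, had 6.18, 6.33 and 6.09 on 3 fasted arrays, against 5.61, 5.20, 5.01 and 5.04 on the 4 fed arrays, and rose by 0.99 ± 0.21 (SE, adjusted p = 0.011). Atg13 and Atg14, of the complexes that start autophagosomes, rose by 0.52 and 0.54, and the cargo receptor Sqstm1 (p62) by 0.48. The Atg13 call was lost without fasted replicate 3 (adjusted p = 0.058) or fed replicate 2 (0.071), and the Atg14 call was lost without fed replicate 2 (adjusted p = 0.057) or fed replicate 3 (0.056). The Sqstm1 call was lost without fasted replicate 2 or 3 or fed replicate 2, 3 or 4 (adjusted p = 0.075 to 0.12). Of 25 lysosomal genes 3 rose and 1 fell, and the count passing was 2 without fasted replicate 3 or fed replicate 2. Npc1, the cholesterol exporter of lysosomes, had 1.20, 0.82, 1.75 and 1.30 on the fasted arrays, against -0.49, -0.54, -0.69 and -0.38 on the fed arrays, and rose by 1.79 ± 0.21 (SE, adjusted p = 0.00021). Atp6v1h, a subunit of the lysosomal proton pump, had 1.17, 0.59, 1.18 and 0.80 on the fasted arrays, against 0.36, -0.14, -0.13 and -0.04 on the fed arrays, and rose by 0.92 ± 0.19 (SE, adjusted p = 0.0071).

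Amino acid genes gave scattered rises. Among 27 genes that break down amino acids 4 rose and 0 fell, against 4.70% of all genes rising and 8.73% passing. The rises were 8 without fed replicate 1 or with replicate number as a block. Prodh, which starts proline breakdown, had 3.48, 3.07, 3.37 and 3.20 on the fasted arrays, against 2.39, 0.85, 0.77 and 1.08 on the fed arrays, and rose by 2.0 ± 0.32 (SE, adjusted p = 0.0015). Gpt2 and Gpt, the alanine aminotransferases, rose by 0.76 ± 0.14 (SE, adjusted p = 0.0037) and 1.17 ± 0.19 (SE, adjusted p = 0.0025), the second with 3 arrays in each group. Glul (glutamine synthetase) had 7.14, 5.79, 6.33 and 5.77 on the fasted arrays, against 5.69, 4.59, 4.29 and 3.90 on the fed arrays, and rose by 1.64 ± 0.41 (SE, adjusted p = 0.021). Its call was lost without fasted replicate 1 or 3 or fed replicate 2, 3 or 4 (adjusted p = 0.051 to 0.063). Of 22 amino acid transporters 4 rose and 1 fell, with a count of 3 without fasted replicate 1 and 2 without fasted replicate 3 or 4 or fed replicate 2 or 3. Slc38a3, a glutamine transporter, had 3.68, 3.34, 3.30 and 3.06 on the fasted arrays, against 2.04, 1.51, 1.87 and 2.34 on the fed arrays, and rose by 1.41 ± 0.23 (SE, adjusted p = 0.0016). The transporter that fell was Slc1a3, a glutamate carrier, at -0.76 ± 0.17 (SE, adjusted p = 0.011). Of 28 ATF4 targets, serine synthesis genes and tRNA synthetases 3 rose and 1 fell. Without fed replicate 1 the rises were 5, and the number passing was 2 without fed replicate 2 or 4, and with replicate number as a block it was 7 higher and 2 lower. Trib3, a pseudokinase that restrains Akt, had 0.68, 1.05, 1.15 and 1.12 on the fasted arrays, against -0.23, 0.18, -0.84 and -0.17 on the fed arrays, and rose by 1.27 ± 0.27 (SE, adjusted p = 0.0088).

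Some brakes on growth signalling rose, and Igf1 fell. With replicate number as a block 7 of 20 mTORC1 regulators and effectors were higher and 2 lower. In the limma fit without it 4 rose and 1 fell, against 8.73% of all genes passing. Beside Ddit4 these included Eif4ebp1, the repressor of cap-dependent translation that mTORC1 switches off, which had 6.0, 5.55, 4.89 and 5.17 on the fasted arrays, against 4.60, 4.49, 3.46 and 4.11 on the fed arrays, and rose by 1.24 ± 0.28 (SE, adjusted p = 0.013). Mtor, the kinase itself, had 2.22, 1.90, 2.27 and 2.19 on the fasted arrays, against 1.20, 1.06, 1.01 and 1.20 on the fed arrays, and rose by 1.02 ± 0.13 (SE, adjusted p = 0.00028), and Flcn, of its lysosomal control, rose by 0.71 ± 0.16 (SE, adjusted p = 0.011). Sesn3, a sestrin known as a FoxO target and a brake on mTORC1, had -0.47, -0.73, -0.87 and -0.65 on the fasted arrays, against 0.38, 0.10, 0.00 and -0.01 on the fed arrays, and changed by -0.80 ± 0.13 (SE, adjusted p = 0.0020). Of 22 insulin and IGF genes 2 rose and 3 fell, with a count of 8 without fed replicate 1 and 3 without fasted replicate 3 or fed replicate 2, and 8 with replicate number as a block. Igf1, the growth factor that enlarges muscle, had 0.62, -0.22, -0.72 and -0.32 on the fasted arrays, against 1.02, 1.52, 1.91 and 1.67 on the fed arrays. It changed by -1.69 ± 0.27 (SE, adjusted p = 0.0014), with all fasted arrays below all fed ones, and its 3 other probes changed by -0.82 to -1.06. Igfbp3, an IGF-binding protein, rose by 1.27 ± 0.22 (SE, adjusted p = 0.0024). Of 21 myostatin, activin and BMP signalling genes 4 rose and 2 fell. Without fed replicate 2 the rises were 2, and without fasted replicate 3 or 4 or fed replicate 3 the falls were 1. Mstn (myostatin), which limits muscle size, had 4.39, 4.06, 4.21 and 4.11 on the fasted arrays, against 3.47, 2.25, 2.88 and 2.92 on the fed arrays, and rose by 1.31 ± 0.30 (SE, adjusted p = 0.013). Inhbb, an activin subunit, had 0.92, 0.43, 0.66 and 0.83 on the fasted arrays, against -0.72, -1.09, -1.35 and -1.46 on the fed arrays, and rose by 1.86 ± 0.22 (SE, adjusted p = 0.00022). Id2, a target of BMP signalling, changed by -0.94 ± 0.22 (SE, adjusted p = 0.014).

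Of 14 growth arrest and p53-responsive genes 4 rose and 1 fell, against 8.73% of all genes passing. The count passing was 3 without fasted replicate 1 or 3 or fed replicate 4. Trp53inp1, which promotes cell cycle arrest, rose by 1.26 ± 0.25 (SE, adjusted p = 0.0064). Cdkn1c, an imprinted inhibitor of the cell cycle, had 3.03, 2.38, 2.29 and 2.62 on the fasted arrays, against 4.01, 3.51, 4.14 and 3.55 on the fed arrays, and changed by -1.23 ± 0.21 (SE, adjusted p = 0.0022), opposite to Cdkn1a. Of 18 circadian clock genes 6 rose and 0 fell, and 3 passed without fasted replicate 3. Arntl (Bmal1), an activator of the clock, had 4.20, 3.47, 3.46 and 3.38 on the fasted arrays, against 2.66, 2.26, 2.21 and 2.65 on the fed arrays, and rose by 1.18 ± 0.25 (SE, adjusted p = 0.0084). Per2, a repressor of the clock that glucocorticoids induce, had -1.27, -3.06, -2.20 and -2.44 on the fasted arrays, against -5.12, -4.16, -3.80 and -3.98 on the fed arrays, and rose by 2.02 ± 0.48 (SE, adjusted p = 0.016). Rora, a nuclear receptor that drives Arntl, rose by 0.91 ± 0.18 (SE, adjusted p = 0.0052), while its second probe gave -0.64 (adjusted p = 0.12). Time of day at sampling is not given in the sources used here. Of 23 chaperones 4 rose, and the count passing was 2 without fasted replicate 1 or 3 or fed replicate 2, 3 or 4. Hspb7, a small heat shock protein of muscle, had 6.11, 5.22, 5.02 and 4.50 on the fasted arrays, against 3.73, 3.25, 3.17 and 3.55 on the fed arrays, and rose by 1.79 ± 0.29 (SE, adjusted p = 0.0017). Hspa1a, an inducible Hsp70, rose by 1.67 ± 0.35 (SE, adjusted p = 0.0085).

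Genes of ribosome synthesis, early response and cell division were also counted, against 8.73% of all genes passing. Of 23 ribosome biogenesis genes 2 rose, and the count passing was 1 without fasted replicate 1 or 3 or fed replicate 2, 3 or 4, with 7 rises with replicate number as a block. Nop14, of small subunit processing, rose by 0.74 ± 0.15 (SE, adjusted p = 0.0070). Of 20 immediate early, AP-1, MAF, KLF and Nr4a genes 2 rose, the small MAF factors Maff, at 1.84 ± 0.26 (SE, adjusted p = 0.00072), and Mafk, at 0.98 ± 0.20 (SE, adjusted p = 0.0063), and the count was 5 without fasted replicate 2 and 4 without fed replicate 3, and 7 with replicate number as a block. Of 25 antioxidant genes 2 rose, against 0 or 1 without any 1 array and 4 with replicate number as a block. Cat (catalase) rose by 0.87, a call lost without any 1 of the 8 mFoxO-TKO arrays other than fasted replicate 1 (adjusted p = 0.070 to 0.14). Without fasted replicate 1 Cat rose by 1.22 (adjusted p = 0.00015), and its second probe gave 1.44 on all arrays (adjusted p = 2.4e-05). Txnip, which inhibits thioredoxin, rose by 0.70, a call lost without any 1 of the 8 mFoxO-TKO arrays other than fasted replicate 4 (adjusted p = 0.064 to 0.13). Of 30 cytosolic ribosomal proteins and 11 polyamine genes 0 passed in the limma fit. At an unadjusted p under 0.05 these were 1 and 2, and with replicate number as a block 1 and 1. For polyamine genes 1 passed without fasted replicate 1 or fed replicate 4. Of 18 cell cycle and DNA replication genes 1 fell, with a median of -0.77 and 7 falls at an unadjusted p under 0.05. The gene that fell was Mcm5, a replicative helicase subunit with 3 fasted arrays, at -0.89 ± 0.23 (SE, adjusted p = 0.026). Its call was lost without fasted replicate 3 or 4 or fed replicate 1 or 2 (adjusted p = 0.050 to 0.12). The count of this list was 6 without fasted replicate 2, 5 without fed replicate 4 and 0 without fasted replicate 3 or 4 or fed replicate 1 or 2.

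No gene of the sarcomere list passed. Of 31 sarcomere and calcium handling genes 0 passed in the limma fit, 4 did at an unadjusted p under 0.05 and 1 did with replicate number as a block or without fed replicate 1. All 8 muscle fibre markers were tested and 0 passed, also at an unadjusted p under 0.05. Their fasted minus fed values ran from 0.03 to 0.44. The fast skeletal troponin Tnnt3, 1 of these markers, had 9.13, 8.82, 8.55 and 8.48 on the fasted arrays, against 8.95, 8.60, 8.56 and 8.35 on the fed arrays.

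Genes of immature fibres separated the fed arrays instead. Of 25 myogenic regulators and neuromuscular junction genes 2 rose and 4 fell, against 8.73% of all genes passing. Without fed replicate 4 these counts were 1 and 7. Myh3, the embryonic myosin heavy chain, had 1.09, 1.34, 0.74 and 1.71 on the fasted arrays, against 6.11, 5.71, 5.27 and 0.36 on the fed arrays. Fed replicate 4 lay below all fasted arrays, and the other 3 fed arrays lay far above them. Myh3 changed by -3.14 ± 0.88 (SE, adjusted p = 0.036). Without fed replicate 4 the change was -4.48 (adjusted p = 6.6e-06), and the call was lost without any 1 of the 8 mFoxO-TKO arrays other than fed replicate 4 (adjusted p = 0.057 to 0.12). WT muscle had 0.93, -0.38, -0.17 and 0.25 on the fasted arrays and 0.07, -0.02, 0.12 and 0.13 on the fed arrays, so the high values were those of 3 fed mFoxO-TKO arrays. Other lists ran the same way over the fed arrays. As a mean difference from each gene's mean over the 8 mFoxO-TKO arrays, the macrophage markers lay at 0.88, 0.97, 0.04 and -0.35 on the fed arrays, and the cell cycle genes at 0.93, 1.29, 0.17 and -0.48. Their part in the result was not tested. Mymk, the membrane protein that fuses myoblasts, had -3.41, -2.58, -3.29 and -2.35 on the fasted arrays, against 0.39, 1.12, 0.03 and -2.33 on the fed arrays, and changed by -2.71 ± 0.56 (SE, adjusted p = 0.0076). Its fed replicate 4 lay just above the highest fasted array. Tubb2b had -0.18, 0.15, -1.13 and -0.63 on the fasted arrays, against 3.21, 3.20, 1.97 and 0.18 on the fed arrays, and changed by -2.59 ± 0.50 (SE, adjusted p = 0.0051), again with fed replicate 4 next to the fasted arrays. Ncam1, an adhesion molecule of developing and denervated fibres, changed by -1.15 ± 0.24 (SE, adjusted p = 0.0073), and its other probes gave -0.45 (adjusted p = 0.37) and -0.07 (adjusted p = 0.91). Hdac9, a repressor of muscle gene programs, had -1.07, -0.88, -2.17 and -1.50 on the fasted arrays, against 0.67, 0.06, 0.31 and -0.07 on the fed arrays, and changed by -1.65 ± 0.33 (SE, adjusted p = 0.0060). Myf6, the myogenic factor of mature fibres, moved the other way. It had 6.84, 6.0, 6.58 and 6.46 on the fasted arrays, against 4.76, 4.94, 4.78 and 4.43 on the fed arrays, and rose by 1.75 ± 0.40 (SE, adjusted p = 0.013).

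Many extracellular matrix genes fell. Of 28 tested 12 fell, 1 rose and 15 did not pass, with a median of -0.79, against 4.03% of all genes falling. The number passing was 7 without fed replicate 3 and 5 without fasted replicate 3. Lum (lumican), a collagen-binding proteoglycan of fibroblasts, had 1.99, 3.12, 1.56 and 2.11 on the fasted arrays, against 3.89, 4.58, 4.72 and 4.18 on the fed arrays, and changed by -2.15 ± 0.33 (SE, adjusted p = 0.0011). Col6a3, of the collagen VI that surrounds fibres, had 3.34, 2.39, 0.91 and 2.05 on the fasted arrays, against 3.71, 4.05, 4.39 and 4.31 on the fed arrays, and changed by -1.94 ± 0.36 (SE, adjusted p = 0.0040). Col6a2 changed by -1.62 ± 0.35 (SE, adjusted p = 0.0086). Col3a1, of fibrillar collagen, had 4.89, 3.64 and 4.34 on 3 fasted arrays, against 5.88, 6.27, 6.51 and 6.24 on the 4 fed arrays, and changed by -1.94 ± 0.46 (SE, adjusted p = 0.018). Its call was lost without fasted replicate 3 (adjusted p = 0.087) or fed replicate 3 (0.052). Tnc (tenascin C), a matrix protein of remodelling tissue, had -3.78, -4.59, -6.05 and -4.91 on the fasted arrays, against -2.48, -2.17, -2.44 and -3.24 on the fed arrays, with 2 fasted arrays not well above background, and changed by -2.25 ± 0.42 (SE, adjusted p = 0.0043). The 1 matrix gene that rose was Lox, a collagen cross-linking enzyme, at 1.56 ± 0.25 (SE, adjusted p = 0.0014), which was picked out after its value was seen. Some fibroblast markers fell as well. Of 8 such markers, which include Lum, 3 fell, 0 rose and 5 did not pass, and 5 passed without fasted replicate 1. Clec3b (tetranectin) had 0.97, 0.00, -0.52 and -0.01 on the fasted arrays, against 1.30, 1.16, 1.62 and 1.17 on the fed arrays, and changed by -1.21 ± 0.25 (SE, adjusted p = 0.0083). Col14a1 changed by -2.06, a call lost without any 1 of the 8 mFoxO-TKO arrays other than fasted replicate 1 (adjusted p = 0.059 to 0.13). Its second probe gave -1.13 (adjusted p = 0.013). The summed signal of 7 of the 8 fibroblast markers ran from 18620 to 31140 on the fasted arrays. On the fed arrays it ran from 22290 to 27480, so the sums, in which bright genes weigh most, overlapped. Mean differences from each gene's mean over the 8 mFoxO-TKO arrays weigh the 8 markers equally, and these did not overlap. They were 0.24, -0.39, -0.89 and -0.64 on the fasted arrays, against 0.49, 0.32, 0.57 and 0.305 on the fed arrays. The part of a change in fibroblast number in the fall of matrix genes was not tested.

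Of 15 angiogenic genes 1 rose and 3 fell, against 8.73% of all genes passing. The count passing was 1 without fasted replicate 3 or fed replicate 2. Apln had -1.96, -2.74, -3.42 and -2.62 on the fasted arrays, against -0.78, -0.34, 0.36 and 0.45 on the fed arrays. It changed by -2.61 ± 0.54 (SE, adjusted p = 0.0078), with all fasted arrays below all fed ones. Its receptor Aplnr, made by endothelial cells, changed by -2.42 ± 0.63 (SE, adjusted p = 0.025). That call was lost without fasted replicate 2 or 3 or fed replicate 2, 3 or 4 (adjusted p = 0.051 to 0.084). Angpt1, which steadies vessels, changed by -1.13, a call lost without fasted replicate 3 (adjusted p = 0.052) or fed replicate 2 (0.062). Flt1, a receptor for VEGF, rose by 0.95, a call lost without fasted replicate 1 or 3 or fed replicate 1 or 2 (adjusted p = 0.056 to 0.071). Of 8 endothelial markers 0 passed in the limma fit and 1 did at an unadjusted p under 0.05. With replicate number as a block 0 passed. Over 7 of these 8 markers the summed signal ran from 4963 to 8459 on the fasted arrays. On the fed arrays it ran from 3773 to 7367. Of 8 macrophage markers Cd163 was not above background and 7 were tested, with a median of -0.70 and 1 passing. It was Adgre1, a macrophage surface receptor, with -1.29, 0.20, -1.38 and -0.93 on the fasted arrays, against 0.80, 1.20, 0.28 and -0.23 on the fed arrays, at -1.36 ± 0.33 (SE, adjusted p = 0.016), and the groups overlapped. Its call was lost without fasted replicate 3 (adjusted p = 0.059) or fed replicate 2 (0.062), and its second probe gave -0.43 (adjusted p = 0.54). The count of macrophage markers was 3 without fasted replicate 1 or fed replicate 4, 2 without fasted replicate 2 and 0 without fasted replicate 3 or fed replicate 2, and 4 with replicate number as a block. Their summed signal ran from 1170 to 2539 on the fasted arrays and from 1895 to 3968 on the fed arrays. Markers of lymphocytes, neutrophils, smooth muscle and pericytes, Schwann cells, erythroid cells, satellite cells and hepatocytes gave 0 passing genes of 3, 3, 6, 6, 5, 4 and 2 tested. At an unadjusted p under 0.05 these were 1, 1, 2, 2, 1, 1 and 0, and with replicate number as a block 1, 0, 0, 0, 1, 1 and 0. For satellite cells 1 passed without fasted replicate 1 or fed replicate 4. A second probe of the hepatocyte marker Apoc3 gave 2.61 (adjusted p = 0.0020), while the brighter probe, which was counted, gave 0.34 (adjusted p = 0.32).

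**Figure D3:**
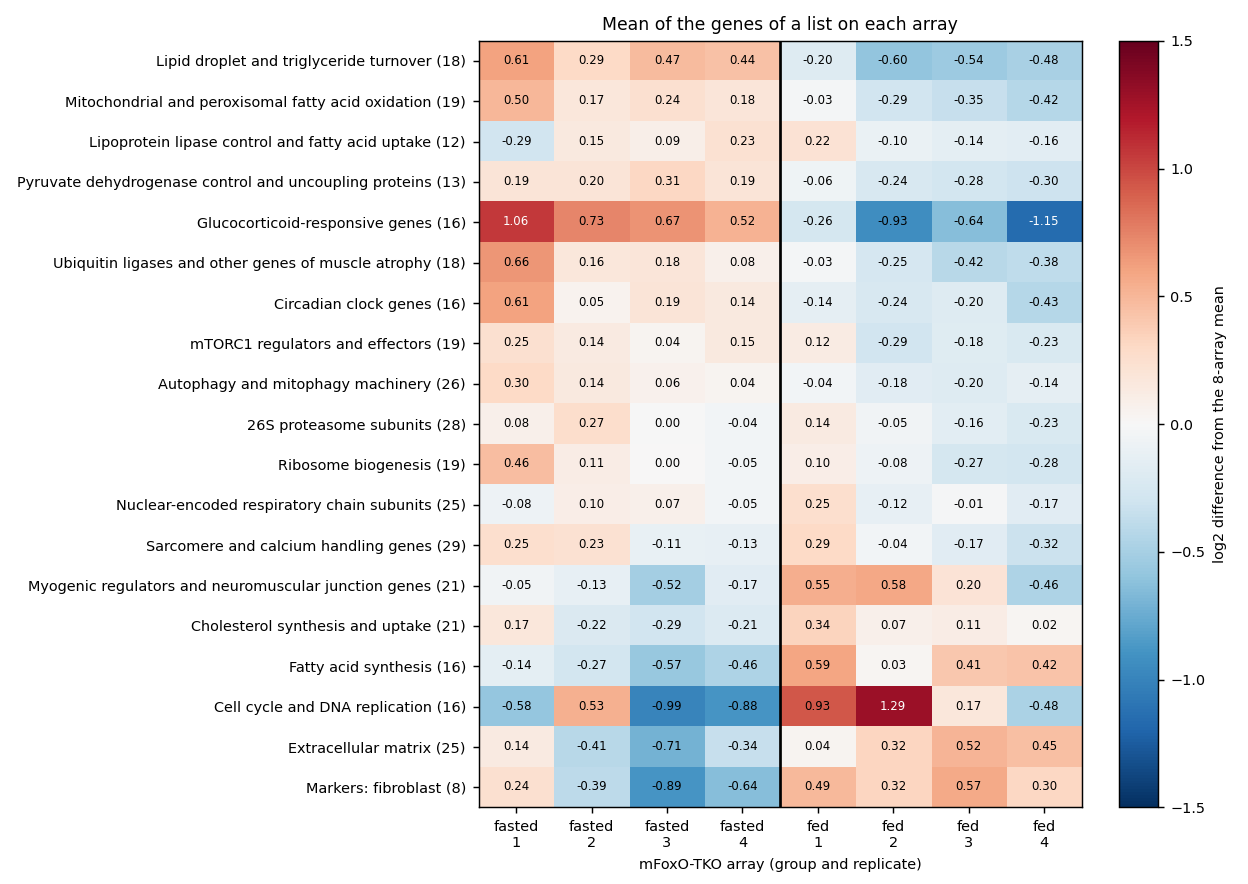
Mean over the genes of a list of the log2 difference from each gene's mean over the 8 mFoxO-TKO arrays, for 19 lists (rows, with the number of genes that had a value on all 8 arrays) and for the fasted arrays (left of the line) and the fed arrays (right of it). Lipid droplet and glucocorticoid-responsive lists are above 0 on all 4 fasted and below 0 on all 4 fed arrays, while myogenic genes are at 0.55 and 0.58 on fed replicates 1 and 2 and at -0.46 on fed replicate 4.

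The fasting change in mFoxO-TKO was then set against that in WT, which was measured on other arrays. In WT 2503 genes rose (11.8%) and 2007 fell (9.43%). Of the 1000 genes that rose in mFoxO-TKO 696 also rose in WT, which is 69.6% of the mFoxO-TKO and 27.8% of the WT rises. Of the 857 that fell 616 also fell in WT, which is 71.9% of the mFoxO-TKO and 30.7% of the WT falls. For 10 genes the changes passed in opposite directions. The difference between the changes was itself tested and passed for 239 genes (1.12%), of which 99 had the higher change in mFoxO-TKO (0.465%) and 140 the lower (0.658%). Of the 1857 genes that fasting changed in mFoxO-TKO, 59 had a change that differed from that in WT (3.18%). The difference passed for 657 genes with replicate number as a block, for 428 without fasted replicate 1, and for 140 to 156 without fed replicate 3, fed replicate 2 or fasted replicate 4. Among the 26 named genes whose difference passed, 19 kept that call without each of the 8 mFoxO-TKO arrays in turn, and 26 kept it with replicate number as a block. With normexp background correction, which ended the calls of Galnt3, Sqstm1, Tmem132e and Zim1, 22 kept it. With no filter on dim probes, which tests more genes, 14 did. That setting ended the calls of Chac1, Doc2b, Fgf5, Foxo1, Galnt3, Lcn2, Mafk, Myod1, Rnf39, Sqstm1, Vmn1r65 and Zim1 (adjusted p = 0.054 to 0.16). WT arrays were not left out.

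Several genes that rose strongly in WT had a lower change in mFoxO-TKO. Depp1 rose by 1.73 in mFoxO-TKO and by 5.46 in WT, a difference of -3.73 ± 0.55 (SE, adjusted p = 0.0036). WT muscle had 7.60, 6.89, 6.92 and 6.84 on the fasted arrays and 1.45, 1.27, 2.33 and 1.36 on the fed arrays, so the fasted knockout arrays (2.55 to 3.27) lay below every fasted WT array. Rassf4, of the Ras association family, had -2.74, -2.82, -3.22 and -2.94 on the fasted arrays, against -3.07, -2.90, -3.56 and -3.84 on the fed arrays, and its value of 0.41 ± 0.27 (SE, adjusted p = 0.41) did not pass. The difference from the WT change of 3.71 was -3.30 ± 0.39 (SE, adjusted p = 0.0011). Rnf39, a ring finger protein, had -2.98, -5.03, -4.75 and -4.99 on the fasted arrays, against -3.04, -5.17, -5.03 and -5.05 on the fed arrays, and was not well above background on 3 of the fasted arrays. Its difference from the WT change of 4.05 was -3.92 ± 0.74 (SE, adjusted p = 0.017) on these faint signals, a call lost with no filter on dim probes (adjusted p = 0.062). The FoxO core printed above lies in the Rnf39 promoter. The promoters of Depp1, Rassf4, Slc43a1, Arl4d, Tmem132e, Zim1 and Chac1, whose difference was also negative, held no match to it. Neither did those of Galnt3, Maff, Mafk, Pfkfb3, Foxo1, Gabarapl1 and Sqstm1. Over the 84 genes with a promoter that rose in WT and had a lower change in mFoxO-TKO, 10.7% (9 genes) held the FoxO core, against 4.43% of the 1558 that rose in WT and 3.18% of all. These shares were not tested.

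Slc43a1, an amino acid transporter, had 1.19, 0.65, 1.84 and 1.26 on the fasted arrays, against 0.66, 0.08, 0.15 and -0.04 on the fed arrays. Its rise of 1.02 was a call lost without fasted replicate 3 or 4 or fed replicate 2, 3 or 4 (adjusted p = 0.057 to 0.088), and its difference from the WT change of 3.86 was -2.84 ± 0.38 (SE, adjusted p = 0.0016). Arl4d, a small GTPase, rose by 1.01 ± 0.19 (SE, adjusted p = 0.0038) in mFoxO-TKO and by 3.68 in WT, a difference of -2.68 ± 0.26 (SE, adjusted p = 0.00032). Doc2b, a calcium sensor of vesicle fusion, rose by 3.25 in mFoxO-TKO and by 6.08 in WT, a difference of -2.83 ± 0.54 (SE, adjusted p = 0.018). That call was lost with no filter on dim probes (adjusted p = 0.064). Tmem132e, not well above background on 3 arrays of each mFoxO-TKO group, differed by -3.56 ± 0.38 (SE, adjusted p = 0.00052). With normexp background correction that value was -1.18 (adjusted p = 0.38), so the call was lost. Zim1, an imprinted zinc finger gene, differed by -2.72 ± 0.51 (SE, adjusted p = 0.015). That call was lost with normexp background correction, at -0.94 (adjusted p = 0.41), and with no filter on dim probes (adjusted p = 0.057). Chac1, which degrades glutathione and is an ATF4 target, differed by -2.79 ± 0.60 (SE, adjusted p = 0.035), a call lost without fasted replicate 4 or fed replicate 1 or 2 (adjusted p = 0.058 to 0.073). Galnt3 did not read well above background on the mFoxO-TKO arrays, so no change is given for it. Over all genes 0.658% had a lower change in mFoxO-TKO and 0.465% a higher one. Among autophagy genes 4 of 31 had a lower change and 0 a higher one. They were Depp1, Gabarapl1 at -1.70 ± 0.29 (SE, adjusted p = 0.012), Ulk1, the kinase that starts autophagy, at -1.55 ± 0.23 (SE, adjusted p = 0.0036), and Sqstm1 at -0.81 ± 0.18 (SE, adjusted p = 0.043). Ulk1 was picked out after its value was seen. The Sqstm1 call was lost without any 1 of the 8 mFoxO-TKO arrays other than fasted replicate 1 (adjusted p = 0.057 to 0.13). Maff and Mafk rose by 1.84 and 0.98 in mFoxO-TKO, against 4.06 and 2.36 in WT, and the differences were -2.22 ± 0.37 (SE, adjusted p = 0.0075) and -1.38 ± 0.28 (SE, adjusted p = 0.024). The Mafk call was lost without fasted replicate 2 or fed replicate 2 or 3 (adjusted p = 0.055 to 0.060).

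The proteasome and ribosome biogenesis lists differed in counts of passing genes, with 1 and 2 rises in mFoxO-TKO, against 13 and 13 in WT. However, the difference between the changes passed for 0 of 31 and 0 of 23 of their genes. For Trim63 the difference was -0.23 ± 0.47 (SE, adjusted p = 0.93) and for Fbxo32 -1.46 ± 0.45 (SE, adjusted p = 0.17), which did not pass.

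Other genes had a higher change in mFoxO-TKO than in WT. Aqp4, the water channel of fast fibres, had 2.15, 2.38, 2.33 and 3.19 on the fasted arrays, against 2.88, 2.36, 2.60 and 2.33 on the fed arrays, and differed from the WT change of -3.12 by 3.09 ± 0.40 (SE, adjusted p = 0.0016). Myod1, the myogenic factor, had 2.96, 1.41, 1.51 and 1.66 on the fasted arrays, against 2.28, 1.78, 1.51 and 1.66 on the fed arrays, and differed from the WT change of -2.95 by 3.03 ± 0.60 (SE, adjusted p = 0.021). That call was lost without fed replicate 3 (adjusted p = 0.051). For both genes the fasted and fed knockout arrays overlapped. Mamstr, a coactivator of MyoD and MEF2, differed by 2.35 ± 0.28 (SE, adjusted p = 0.0012), Mpp3 by 2.66 ± 0.39 (SE, adjusted p = 0.0036), Fgf5 by 2.70 ± 0.49 (SE, adjusted p = 0.014), Gdf1 by 2.17 ± 0.27 (SE, adjusted p = 0.0012) and the pheromone receptor gene Vmn1r65 by 2.21 ± 0.42 (SE, adjusted p = 0.017). Car9, a membrane carbonic anhydrase, had 1.80, 1.77, 2.10 and 1.53 on the fasted arrays, against -0.12, -0.04, -0.10 and 0.25 on the fed arrays. It rose by 1.80 ± 0.18 (SE, adjusted p = 5.2e-05) in mFoxO-TKO and changed by -0.57 ± 0.18 (adjusted p = 0.035) in WT, and the difference was 2.37 ± 0.26 (SE, adjusted p = 0.00052). Lcn2 rose by 4.67 in mFoxO-TKO and by 1.81 in WT. That difference was 2.86 ± 0.62 (SE, adjusted p = 0.035), a call lost without fasted replicate 3 or 4 or fed replicate 2, 3 or 4 (adjusted p = 0.064 to 0.076). Pfkfb3, which makes the activator of glycolysis, went against these genes, with a lower change in mFoxO-TKO than in WT. It had 2.75, 2.07, 2.15 and 2.47 on the fasted arrays, against 3.49, 3.12, 3.23 and 3.17 on the fed arrays. It changed by -0.89 ± 0.21 (SE, adjusted p = 0.015) in mFoxO-TKO, while it rose by 1.16 in WT. The difference was -2.05 ± 0.30 (SE, adjusted p = 0.0031). Within mFoxO-TKO the Pfkfb3 call was lost without fasted replicate 3 (adjusted p = 0.051), and a second probe gave -0.53 (adjusted p = 0.26).

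**Figure D4:**
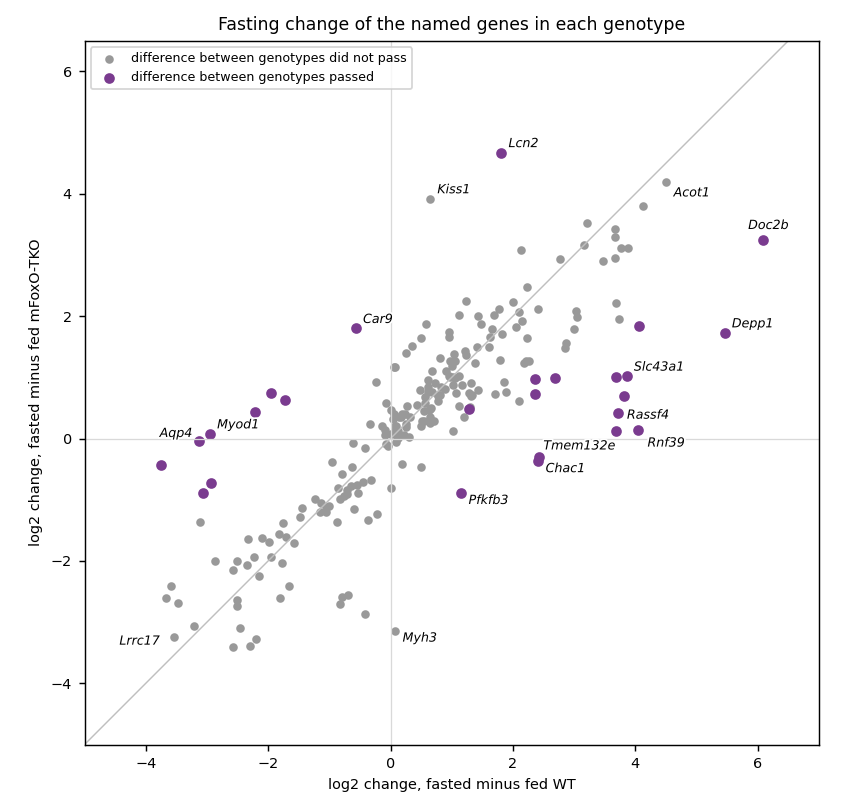
Fasting change (log2, fasted minus fed) in mFoxO-TKO (vertical axis) against that in WT (horizontal axis) for the 226 named genes; purple points are the 26 genes whose difference between genotypes passed, grey points the others, and the diagonal marks equal changes. Depp1, Rassf4 and Rnf39 lie far below the diagonal with WT changes of 5.46, 3.71 and 4.05, and Car9, Aqp4 and Myod1 lie above it.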

How the data were processed

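Cy3-labelled RNA was hybridised to 16 Agilent 1-colour mouse arrays, 4 per group. Per the file headers, the deposited intensity values (processed signal) had background and spatial trends removed by Feature Extraction 11.0.1.1, while the submitters' processing notes give version 9.5. The deposited marks of each spot, per the file headers, say whether it was well above background, uneven or saturated. The authors' value table holds 1 score per spot for 18324 spots. Its values are the same processed signal divided by 1 factor per array, so that the 75th percentile is 100, rounded; how those spots were chosen is not given in the sources used here.

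Here log2 of the processed signal minus the 75th percentile of the array was taken over 55681 probes. Uneven or outlying spots were left out. Probes that read well above background throughout 1 or more groups were kept (28562), and the brightest probe of each gene was used, giving 21275 genes, of which 14142 have a symbol. Symbols come from matching the accessions of the array design to RefSeq transcripts (28331 of the 55681 probes matched 1 gene), and genes without one carry the name of a probe. Group means of all 16 arrays were fitted with limma 3.58.1 (R 4.3.3, lmFit and eBayes), and p-values were adjusted by the Benjamini-Hochberg method, with 0.05 as threshold. Values of other probes of a gene come from a fit of all 28562 kept probes, with p-values adjusted over those, and no array was left out. Tables and plots were made with pandas 2.3.3 and matplotlib 3.10.9 in Python 3.11.15. The fit was tested on simulated data with known changes. Of 100 genes changed by 1 log2 unit it recovered 63 in the right direction, and of 100 changed by 2 log2 units 92. It called 5 unchanged genes. A gene that did not pass can thus still have changed. The simulated noise was normal, with an equal spread on every array and without slide effects or patches. The shares found and miscalled may therefore differ on the real arrays. Alternatives were the arrays in the fit, background correction, scaling, filter, slide, replicate block, each array left out, array weights, uneven spots, patch spots, the mean over probes and the authors' table.

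Same-numbered fasted and fed mFoxO-TKO samples deviated together from their group means (correlations 0.141, 0.392, 0.193 and 0.387), so that number was also used as a block. Numbers also share a slide, and within a slide these correlations were 0.064 on slide 1 and 0.020 on slide 2. Different-numbered samples of the same slide deviated together as well (correlations 0.103 and 0.22 on slide 1, 0.238 and 0.312 on slide 2). Samples of different slides had correlations of -0.382 to -0.132. The replicate block thus also takes up the slide, and the labels do not state a pairing of samples by number. The members and gene lists were chosen with earlier results of these data known. Genes were named by rule: the 14 largest rises and falls with groups that do not overlap, up to 6 passing members of each list, the 2 brightest members of lists with fewer than 3 passing, and the 10 largest differences from WT in each direction. Other genes named are said to have been picked after their values were seen. A few genes that the rule names are counted but not reported here. Promoters are RefSeq sequences.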

Additional observations from a re-analysis of the deposited data

Results flagged for a closer look

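In 25 of 419 groups of 4 mFoxO-TKO arrays examined (5.97%), 1 array lay so far from the others that its gap to the nearest, as a share of the range, passed Dixon's critical value for 4 samples. Chance gives such a gap in about 1 in 20 groups. Fasted replicate 1, the array with the patches of lost signal, was the array in 8 of the 25. On it the early-response factor Nr4a1 read -4.14, against 6.01 to 6.87 on the other 3. The fasted minus fed value of Nr4a1 was -2.86 (adjusted p = 0.42), and -0.25 (adjusted p = 0.70) without that array. For the other 7 genes fasted replicate 1 was the high array. The clock factor Arntl read 4.20, against 3.38 to 3.47 on the other 3. The endothelial gene Egfl7 read 6.03, against 5.23 to 5.35 on the other 3, and Etfdh, of fat oxidation, read 6.43, against 5.73 to 5.80 on the other 3. The myogenic factor Myod1 read 2.96, against 1.41 to 1.66 on the other 3, and the proteasome subunit Psmd11 read 4.43, against 3.72 to 3.80 on the other 3. The acute-phase gene Serpina3n, which rose, read 1.64, against -1.02 to -0.62 on the other 3. Rnf39, a relative of the ubiquitin ligases, was high on replicate 1 of both groups. It read -2.98, against -5.03 to -4.75 on the other 3 fasted arrays, and -3.04, against -5.17 to -5.03 on the other 3 fed arrays.

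On fasted replicate 3 the adipocyte marker Fabp4 was low, at 6.63, against 7.01 to 7.05 on the other 3. The vesicle transport gene Mlph was high there, at -1.03, against -3.25 to -2.91 on the other 3, and Odf3l2 read 7.02, against 6.12 to 6.21 on the other 3. For Mlph and Odf3l2, which rose, the other 3 fasted arrays also lay above all fed arrays.

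Fed replicate 1 was the array in a further 8. On it lipoprotein lipase (Lpl) read 6.53, against 5.75 to 5.85 on the other 3, and the droplet coat gene Plin4 read 6.53, against 5.78 to 5.86 on the other 3. The peroxisomal enzyme Ehhadh read 0.79, against 0.13 to 0.15 on the other 3, and the ketone enzyme Bdh1 read 4.40, against 3.68 to 3.80 on the other 3. These 4 genes rose on fasting, and among the fed arrays replicate 1 lay nearest to the fasted ones. The call of Lpl was lost without fasted replicate 1, 3 or 4 or fed replicate 2, 3 or 4 (adjusted p = 0.051 to 0.088), and that of Ehhadh was lost without fasted replicate 1 or 3 or fed replicate 2, 3 or 4 (adjusted p = 0.064 to 0.099). Ucp3, which also rose, was low on fed replicate 1, at 1.39, against 1.74 to 1.80 on the other 3. The proline synthesis enzyme Aldh18a1 was low there too, at -3.70, against -2.74 to -2.67 on the other 3, and the autophagy gene Atg14 was high, at 0.62, against 0.27 to 0.32 on the other 3. Aldh18a1 read well above background on 3 of the 4 fed arrays.

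On fed replicate 4 the embryonic myosin Myh3 was low, at 0.36, against 5.27 to 6.11 on the other 3. So were the clock-controlled gene Ciart, at -6.75, against -5.62 to -5.44 on the other 3, and the stress factor Mafk, at 0.34, against 0.65 to 0.70 on the other 3. No fed mFoxO-TKO array read Ciart well above background, so the order of its fed values carries little. On fed replicate 3 Cd209f was high, at 0.90, against 0.19 to 0.28 on the other 3, and the isoleucyl-tRNA synthetase Iars was low, at 3.94, against 4.12 to 4.14 on the other 3. On fed replicate 2 the growth factor binder Igfbp3 was low, at -1.16, against -0.39 to -0.24 on the other 3.

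For 26 named genes the fasting change in mFoxO-TKO muscle minus that in WT passed the test of the difference, as described above. In 16 of them the difference was negative. It was -3.92 for Rnf39, -3.73 for Depp1, -3.56 for Tmem132e and -3.30 for Rassf4. No value is given for Galnt3, which no mFoxO-TKO array read well above background. For Slc43a1 it was -2.84, for Doc2b -2.83, for Chac1 -2.79, for Zim1 -2.72 and for Arl4d -2.68. The stress factors Maff and Mafk gave -2.22 and -1.38, the glycolytic regulator Pfkfb3 gave -2.05, and Foxo1 itself gave -1.63. The autophagy genes Gabarapl1 and Sqstm1 gave -1.70 and -0.81. The remaining differences were positive. Aqp4 gave 3.09, Myod1 3.03, Lcn2 2.86 and Fgf5 2.70. Mpp3 gave 2.66, Car9 2.37, Mamstr 2.35, Vmn1r65 2.21 and Gdf1 2.17. Without each mFoxO-TKO array in turn, 19 of the 26 calls held, and with normexp background correction 22 did.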

How the results depend on the processing

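The fasting contrast in mFoxO-TKO muscle gave 1857 genes (1000 higher, 857 lower), and 239 differed from WT. Leaving out 1 mFoxO-TKO array at a time, 1132 to 2139 genes passed, 606 to 1117 higher and 455 to 1303 lower, and 140 to 428 differed from WT. A fit of the 8 mFoxO-TKO arrays alone gave 979 (557 and 422) and no difference from WT to test. Normexp background correction gave 1213, with 439 lower. The 75th percentile over probes above background on all arrays gave 2951, with 1704 lower, and 611 differences. No filter on dim probes gave 1038 (564 and 474) and 81 differences. Slide as a block gave 2863, with 1633 higher, and 507 differences. Slide 1 alone, with 2 arrays a group, gave 116 (43 and 73) and 6 differences, and slide 2 alone gave 107 differences. Array weights, which gave fasted replicate 1 the lowest weight, 0.139, gave 4700 (2422 and 2278) and 891 differences. Keeping uneven spots gave 451 differences, and the authors' value table gave 663 among 12946 genes. Replicate number as a block, which also takes up the slide, gave 3359 (2068 and 1291) and 657 differences. The causes of these shifts were not tested. Another scaling moved the median of all genes by less than 0.1.

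Of the 164 named genes that passed, 162 also passed with the replicate block, the exceptions being Col14a1 (adjusted p = 0.055) and Postn (adjusted p = 0.075), and the 26 named differences all did. Of those 26 differences 26 passed with slide as a block, 22 with normexp, 14 with no filter on dim probes and 11 on slide 2 alone, and of the 24 with a value on slide 1 alone 1 passed. With slide as a block 164 passed, with the patch spots left out 164, with normexp 134, with the 8 arrays alone 107, with no filter 111, and of the 123 that the authors' value table holds 120 did. Mcm5, a replication gene, gave 0.88 (adjusted p = 0.70) when uneven spots were kept, against -0.89 without them.

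With 4 samples a group, the number of samples limits the precision. Probes near background carry only bounds. Fasted replicate 1 had lost signal, and group and array column cannot be told apart.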

Other observations

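Imprinted genes, which are read from 1 parental copy and many of which act on growth, were picked out after the fall of Mest and Cdkn1c had been seen, so the counts describe these arrays and have no test. Of 19 such genes written down, 17 were tested in mFoxO-TKO muscle, and 7 fell, 1 rose and 9 did not pass. Over all genes 4.03% fell and 4.70% rose. The count that fell was 5 to 8 without each array in turn, and 8 with replicate number as a block. Igf2, the growth factor IGF-II, had -1.58, -1.58, -2.25 and -1.38 on the fasted arrays, against 0.47, -0.11, -0.58 and -1.22 on the fed arrays. It changed by -1.34 ± 0.32 (SE, adjusted p = 0.018), and the call was lost without fasted replicate 3 or fed replicate 2 (adjusted p up to 0.063). Plagl1, a zinc finger regulator of imprinted genes, changed by -1.03 ± 0.23 (SE, adjusted p = 0.010), with all fasted arrays below all fed ones. Ndn (necdin) changed by -0.85, Mirg, a non-coding RNA, by -1.1 and Dlk1, an inhibitor of adipocyte formation, by -1.30. The call of Dlk1 was lost without fasted replicate 3 or 4 or fed replicate 1 or 4 (adjusted p up to 0.072).

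The imprinted gene that rose was Peg3, a zinc finger gene, by 0.95 ± 0.24 (SE, adjusted p = 0.020) in mFoxO-TKO muscle, a call lost without fasted replicate 4 or fed replicate 3 (adjusted p up to 0.063). In WT muscle its change was 2.83, and the difference, mFoxO-TKO minus WT, was -1.87 (adjusted p = 0.013). Impact, whose product restrains the amino acid sensor Gcn2, gave 0.04 (adjusted p = 0.95) in mFoxO-TKO muscle and 1.82 in WT muscle, a difference of -1.79 (adjusted p = 0.017). H19, Igf2r and Gnas gave -0.51, 0.07 and 0.23 and did not pass.

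Genes of developing or regenerating fibres, picked out after Myh3 had been seen, were higher on fed replicates 1 to 3 of the mFoxO-TKO group than on fed replicate 4. Myl4, an embryonic myosin light chain, had 3.19, 2.88, 1.65 and 2.19 on the fasted arrays, against 6.76, 6.38, 5.49 and 1.63 on the fed arrays. Its value was -2.59 (adjusted p = 0.053), and -3.73 (adjusted p = 9.8e-05) without fed replicate 4. Fed WT arrays gave 3.12, 3.11, 3.06 and 2.96, so that 3 fed mFoxO-TKO arrays lay above them and 1 below. Tnnt2, the cardiac troponin T that immature fibres also make, had 3.02, 2.87, 1.99 and -0.39 on the fed mFoxO-TKO arrays. Mymx (myomixer), the partner of myomaker in fusion, had 2.71, 1.91, 0.77 and -2.71 there, and Chrng, the fetal subunit of the acetylcholine receptor, had -1.58, -1.87, -2.52 and -3.79. Chrna1, another subunit, had 4.65, 4.72, 3.84 and 2.86, and the myogenic factor Myog had 4.12, 3.57, 2.46 and 0.95. Fasted minus fed, Tnnt2 gave -2.57 (adjusted p = 0.018). Mymx (adjusted p = 0.52), Chrng (0.11), Chrna1 (0.080) and Myog (0.70) did not pass. Without fed replicate 4 Mymx, Chrng and Chrna1 passed (adjusted p = 0.0062 to 0.0086), and Myog did not (0.15). The fasted arrays of Myog ran from 1.95 to 2.83, so its fed replicate 3 lay inside their range. The order of fed replicate 4 below the other 3 was the same in all of these genes. The macrophage markers and the cell cycle genes, whose mean levels are given above with Myh3, were also lowest on fed replicate 4 of the fed mFoxO-TKO arrays, and their part in this pattern was not tested.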
